A study of Rattus norvegicus with 6 samples.

Results

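The genes described here are 9 genes that move calcium in heart muscle cells: Ryr2, Casq2, Trdn, Jph2, Hrc, Atp2a2, Pln, Cacna1c and Slc8a1. They were chosen by name, as the rows of the deposited expression table whose gene name equals 1 of the 9, and all 9 were found among the 34510 genes of the table. The table comes from poly(A) RNA sequencing of 6 libraries of ventricular muscle cells isolated from newborn rats. The Trim28 group has 3 libraries, from cells infected, per the series' design text, with an adenovirus that expresses TRIM28, a corepressor that acts on chromatin. The Bgal group has 3 libraries, and the labels neither expand that name nor say which virus its cells received. Both groups are labelled with the same cell type, and no genotype, strain, dose or time is given for either. Nothing in the labels ties the libraries to separate cultures or animals, so p-values speak only of the spread from library to library, which may be technical.

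At each heartbeat a small inflow of calcium through the L-type channel of the surface membrane opens ryanodine receptors on the sarcoplasmic reticulum, the internal calcium store, and the calcium released from the store starts contraction. A calcium pump then returns calcium to the store, held back by the small protein phospholamban unless phospholamban is phosphorylated, and the sodium-calcium exchanger carries the rest out of the cell. Junctophilin holds the surface membrane and the store close together at the sites where the channel and the receptor face each other.

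Values are FPKM, fragments scaled by the annotated gene length and by the library total. Trim28 itself stood at 2923, 2890 and 980.0 FPKM in Trim28 replicates 1 to 3, against 81.6, 87.8 and 77.6 FPKM in Bgal replicates 1 to 3. The library labelled Trim28 replicate 3 thus had the lowest Trim28 level of its group, still above all Bgal libraries. Reads assigned to genes lay between 26146166 and 28298731 in the Trim28 libraries and between 28574951 and 34593292 in the Bgal libraries. The least covered of the 9 genes, Hrc, had 765 to 1482 reads per library, and the most covered, Atp2a2, had 266877 to 336816.

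Of the 9 genes, 5 rose, 2 fell and 2 did not pass the test. Jph2, Casq2, Cacna1c, Atp2a2 and Slc8a1 were higher in the Trim28 libraries, and Pln and Hrc were lower. Ryr2 and Trdn did not pass. All 9 genes passed the filter on low values, which was 0.5 FPKM in at least 3 libraries, and the threshold was a limma adjusted p of 0.05 over all 14808 tested genes. Over those genes 20.1% rose and 21.1% fell, 41.2% in all, so a large share of the transcriptome was called in this comparison. The median log2 change was 0.25 over the 9 genes and -0.02 over all tested genes. In 8 of the 9 genes the values of the groups did not overlap, as in 53.8% of all tested genes.

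**Figure D1:**
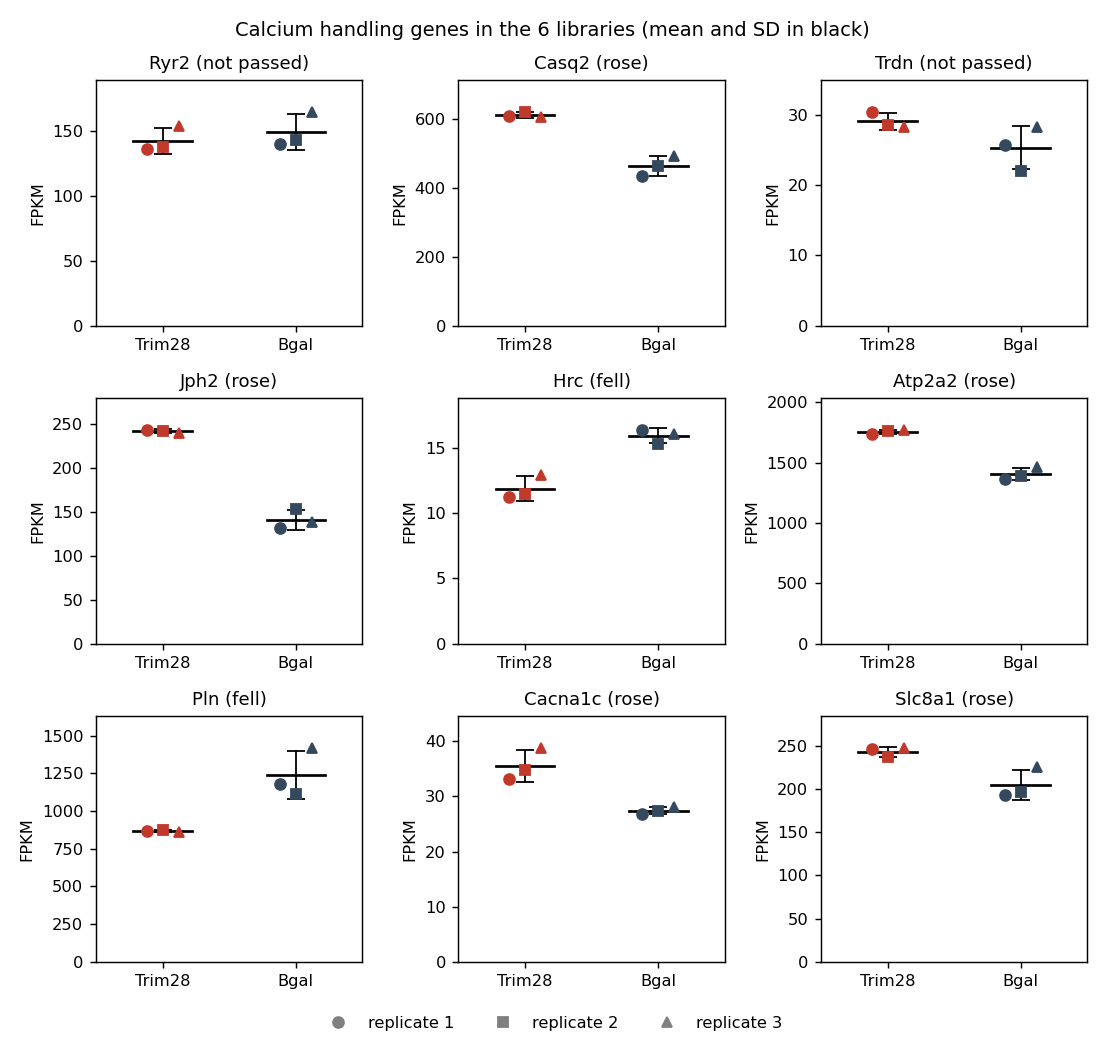
FPKM of the 9 calcium handling genes (vertical axes, from 0) in the 3 Trim28 and the 3 Bgal libraries; symbols are replicates, and black bars are means with SD. The Trim28 points of Jph2, Casq2 and Atp2a2 lie close together above the Bgal points, those of Pln and Hrc lie below, and those of Ryr2 overlap.

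The promoters of 4 of these genes are printed here because they stand for the movements described below: the pump gene Atp2a2 and the gene of its inhibitor Pln, which moved in opposite directions, and Jph2 and Casq2, which had the largest rises. Each window runs from 250 bases before to 50 bases after the start of the gene in RefSeq, on build GRCr8, read 5′ to 3′ on the gene's strand. Capitals mark matches on either strand to GATA motifs (AGATAA and its variants with T as the opening base or G as the closing base, or both), the TATA box (TATAAA), the GC box (GGGCGG), the MCAT motif (CATTCC), the MEF2 site or the CArG box.
Atp2a2, chr12:39733269-39733568, plus strand: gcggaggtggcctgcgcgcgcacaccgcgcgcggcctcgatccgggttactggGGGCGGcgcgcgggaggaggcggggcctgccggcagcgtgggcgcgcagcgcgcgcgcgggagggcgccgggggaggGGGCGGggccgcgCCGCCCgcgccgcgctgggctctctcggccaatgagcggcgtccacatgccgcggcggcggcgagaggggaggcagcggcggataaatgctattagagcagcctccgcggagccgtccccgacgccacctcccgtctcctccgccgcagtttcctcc
Pln, chr20:33172244-33172543, plus strand: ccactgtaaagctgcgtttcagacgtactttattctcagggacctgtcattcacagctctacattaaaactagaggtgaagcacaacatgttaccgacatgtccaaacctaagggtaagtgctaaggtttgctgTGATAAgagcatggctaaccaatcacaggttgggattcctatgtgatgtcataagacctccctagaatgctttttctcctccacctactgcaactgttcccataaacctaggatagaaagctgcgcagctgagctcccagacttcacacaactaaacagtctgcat
Jph2, chr3:172477872-172478171, minus strand: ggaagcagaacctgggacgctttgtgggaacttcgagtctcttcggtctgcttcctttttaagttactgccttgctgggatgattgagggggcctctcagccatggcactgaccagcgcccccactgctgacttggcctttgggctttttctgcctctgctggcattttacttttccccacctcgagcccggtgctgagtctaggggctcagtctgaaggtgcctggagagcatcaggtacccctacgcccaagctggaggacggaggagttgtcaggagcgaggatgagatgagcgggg
Casq2, chr2:192214306-192214605, plus strand: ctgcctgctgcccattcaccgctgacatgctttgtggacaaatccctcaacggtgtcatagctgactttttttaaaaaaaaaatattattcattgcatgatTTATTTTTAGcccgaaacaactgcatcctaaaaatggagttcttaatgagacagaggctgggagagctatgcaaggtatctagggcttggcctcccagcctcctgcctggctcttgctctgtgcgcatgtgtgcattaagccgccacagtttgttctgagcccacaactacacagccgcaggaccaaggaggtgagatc

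These windows differ in composition. G and C made up 79% of the Atp2a2 window, 58% of that of Jph2, 47.7% of that of Casq2 and 45% of that of Pln, against a median of 51.7% over all 33469 windows of the RefSeq table. The Atp2a2 window holds 3 GC box matches, the Pln window 1 GATA match, the Casq2 window 1 MEF2 match, and the Jph2 window none of the capitalised motifs. Over the 9 genes the GC box was matched in 2 windows (33.1% of all windows), GATA in 3 (30.3%), MCAT in 1 (14.2%), the MEF2 site in 1 (1.87%), and the TATA box and the CArG box in 0 (14.2% and 1.64%). The E-box (CANNTG), not capitalised, was matched in 7 of the 9 windows and in 72.1% of all windows. No matches of different motifs overlapped in the printed windows. A match is a run of letters and was not tested as a binding site.

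Among the genes of the release site, Jph2, which encodes the cardiac junctophilin (ENSRNOG00000008170, chromosome 3, 159712325 to 159775643, minus strand), showed the largest change of the 9. Its level was 243, 242 and 239 FPKM in Trim28 replicates 1 to 3, against 131, 153 and 138 FPKM in Bgal replicates 1 to 3. The Trim28 libraries lay within a few FPKM of each other, and the lowest of them was far above the highest Bgal library. Means were 241 ± 2.02 FPKM in the Trim28 libraries and 141 ± 11.1 FPKM in the Bgal libraries (SD, n = 3 each), 1.72-fold. On the log2 scale of FPKM + 1 it rose by 0.78 (SE 0.06, limma adjusted p = 0.000131), and 4.10% of all tested genes had a higher value. Gene coordinates here and below are those of the deposited table, which names no genome build.

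Casq2 encodes cardiac calsequestrin, the calcium-binding protein inside the store (ENSRNOG00000016243, chromosome 2, 204512302 to 204568656, plus strand). It stood at 609.8, 621 and 605 FPKM in Trim28 replicates 1 to 3, against 434, 464 and 492 FPKM in Bgal replicates 1 to 3. The groups did not overlap, and the Bgal libraries spread more widely. Means were 612 ± 8.23 FPKM in the Trim28 libraries and 463 ± 28.9 FPKM in the Bgal libraries (SD, n = 3 each), a rise of 0.40 on the log2 scale with an SE of 0.05 (limma adjusted p = 0.0012).

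Ryr2, the release channel itself (ENSRNOG00000017060, chromosome 17, 65535403 to 65955606, minus strand), did not pass. Its values were 136, 137 and 154 FPKM in Trim28 replicates 1 to 3, against 140.0, 143 and 165 FPKM in Bgal replicates 1 to 3. Replicate 3 was the highest library of each group, and the groups overlapped. The log2 difference of -0.07 had a 95% confidence interval of -0.24 to 0.11 (limma adjusted p = 0.528), so these libraries set a bound on a change but do not show that the level was equal. Without Bgal replicate 3 the difference was 0.01.

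Trdn encodes triadin, which anchors calsequestrin to the ryanodine receptor (ENSRNOG00000012609, chromosome 1, 25403390 to 25839345, minus strand). It stood at 30.4, 28.5 and 28.3 FPKM in Trim28 replicates 1 to 3, against 25.8, 22.1 and 28.2 FPKM in Bgal replicates 1 to 3. The lowest Trim28 library was barely above the highest Bgal library. The log2 difference of 0.20 had a 95% confidence interval of -0.01 to 0.40 and did not pass (limma adjusted p = 0.108). The difference moved with single libraries of the Bgal group. Without Bgal replicate 2 it was 0.11 (limma adjusted p = 0.238), and without Bgal replicate 3 it was 0.28 and passed (limma adjusted p = 0.0368).

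Hrc, the histidine-rich calcium-binding protein of the store lumen (ENSRNOG00000020719, chromosome 1, 101324652 to 101328435, plus strand), fell, alone among the 5 genes of the release site. It had 11.2, 11.5 and 12.9 FPKM in Trim28 replicates 1 to 3, against 16.4, 15.3 and 16.1 FPKM in Bgal replicates 1 to 3. All Trim28 libraries were below all Bgal libraries, with replicate 3 the nearest to them. Its mean of 11.9 ± 0.935 FPKM in the Trim28 libraries, against 15.9 ± 0.575 FPKM in the Bgal libraries (SD, n = 3 each), was a log2 change of -0.40 with an SE of 0.07 (limma adjusted p = 0.00357). In the deposited coordinates Hrc overlaps Ppfia3 on the opposite strand, which averaged 0.254 FPKM.

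Of the uptake genes, the pump and its inhibitor moved in opposite directions. Atp2a2, the calcium pump of the store (ENSRNOG00000001285, chromosome 12, 39553903 to 39603326, plus strand), had 1739, 1762 and 1773 FPKM in Trim28 replicates 1 to 3, against 1365, 1388 and 1466 FPKM in Bgal replicates 1 to 3. The gap between the groups was wider than the spread within either. Means were 1758 ± 17.0 FPKM in the Trim28 libraries and 1406 ± 52.9 FPKM in the Bgal libraries (SD, n = 3 each), a log2 change of 0.32 with an SE of 0.05 (limma adjusted p = 0.00232). It took 1.16% to 1.19% of all gene reads in the Trim28 libraries and 0.929% to 0.975% in the Bgal libraries.

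Pln encodes phospholamban, the inhibitor of that pump (ENSRNOG00000000413, chromosome 20, 34633157 to 34642904, plus strand). It had 866, 872 and 858 FPKM in Trim28 replicates 1 to 3, against 1183, 1113 and 1419.6 FPKM in Bgal replicates 1 to 3. All Trim28 libraries were low and nearly level, whereas Bgal replicate 3 stood above the other 2. Means were 865 ± 6.92 FPKM in the Trim28 libraries and 1238 ± 161 FPKM in the Bgal libraries (SD, n = 3 each), 1.43-fold lower in the Trim28 group. On the log2 scale the change was -0.51 (SE 0.09, limma adjusted p = 0.00351), or -0.41 without Bgal replicate 3 (limma adjusted p = 0.0019). Pln overlaps Cep85l on the opposite strand, which averaged 2.08 FPKM, and the labels do not state whether the counting used strand.

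Cacna1c, the pore subunit of the L-type calcium channel (ENSRNOG00000007090, chromosome 4, 150641066 to 150829913, minus strand), carries the entry of calcium. It had 33.2, 34.7 and 38.8 FPKM in Trim28 replicates 1 to 3, against 26.8, 27.3 and 28.04 FPKM in Bgal replicates 1 to 3. The groups did not overlap, and Trim28 replicate 3 was the highest of all 6 libraries. Means were 35.6 ± 2.92 FPKM in the Trim28 libraries and 27.4 ± 0.632 FPKM in the Bgal libraries (SD, n = 3 each), a log2 change of 0.36 with an SE of 0.06 (limma adjusted p = 0.00376).

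Slc8a1, the sodium-calcium exchanger that extrudes calcium (ENSRNOG00000008479, chromosome 6, 4258991 to 4520604, minus strand), showed the smallest rise that passed. It had 246, 237 and 248 FPKM in Trim28 replicates 1 to 3, against 193, 196 and 225 FPKM in Bgal replicates 1 to 3. The groups did not overlap, although Bgal replicate 3 came close to the Trim28 libraries. The change of 0.25 on the log2 scale had an SE of 0.06 (limma adjusted p = 0.0173). That call was lost when Trim28 replicate 1, Bgal replicate 1 or Bgal replicate 2 was left out, with limma adjusted p of 0.0557, 0.0543 and 0.0533.

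**Figure D2:**
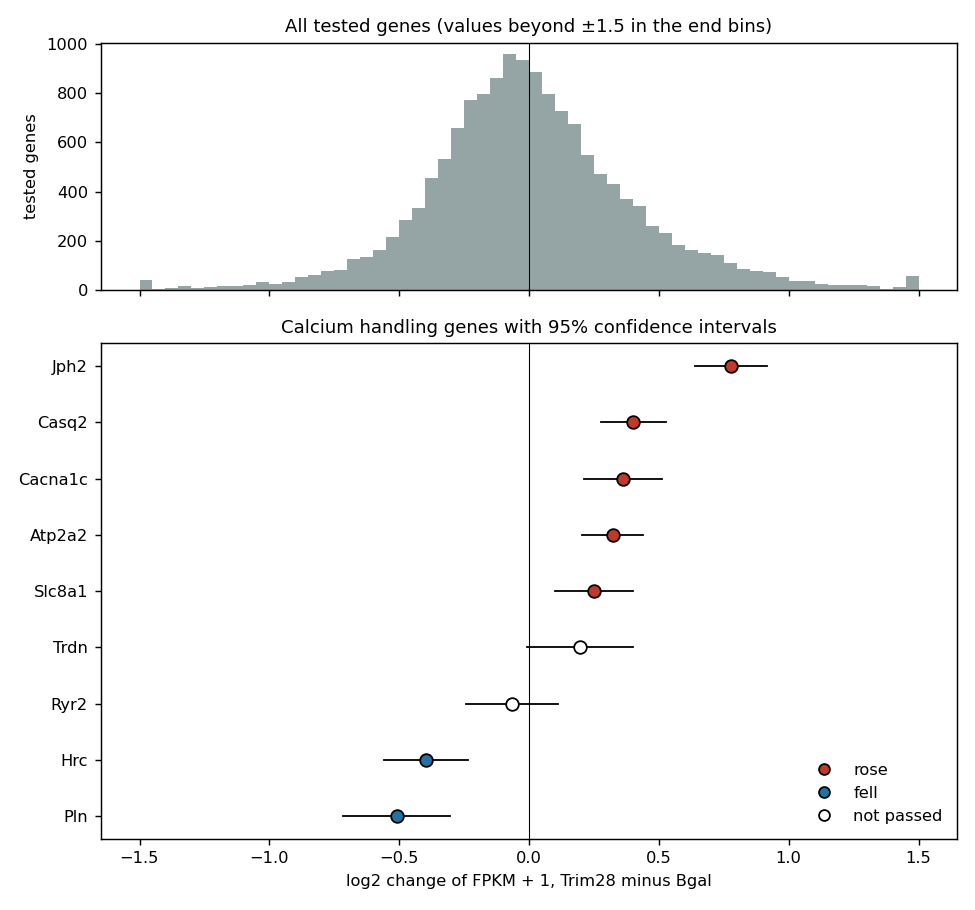
Log2 change of FPKM + 1, Trim28 minus Bgal (horizontal axis), as a histogram of all tested genes (upper panel, number of genes) and for each of the 9 genes with its 95% confidence interval (lower panel). The 5 genes that rose have intervals above 0, from Slc8a1 at 0.25 to Jph2 at 0.78, Pln and Hrc lie below 0, and the intervals of Ryr2 and Trdn include 0.

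The order of levels among the 9 genes, per annotated length, was the same in both groups except for the places of Jph2 and Ryr2. In the Trim28 libraries the order of mean FPKM was Atp2a2, Pln, Casq2, Slc8a1, Jph2, Ryr2, Cacna1c, Trdn and Hrc, and the only neighbours whose ranges overlapped were Slc8a1 and Jph2. In the Bgal libraries Ryr2 stood above Jph2, and the ranges overlapped between Atp2a2 and Pln, between Ryr2 and Jph2, and between Cacna1c and Trdn. Together the 9 genes took 1.88% to 1.95% of the gene reads in the Trim28 libraries and 1.65% to 1.80% in the Bgal libraries. Their median coefficient of variation was 2.37% among the Trim28 libraries and 7.88% among the Bgal libraries, against medians of 8.11% and 8.20% in the same groups over all tested genes. The tested genes include many with far lower levels than these 9, and the comparison was not matched for level. Bgal replicate 3 was the highest Bgal library for 7 of the 9 genes. Trim28 replicate 3, with the lowest Trim28 level, lay between the Bgal mean and the other Trim28 libraries for 3 of the 7 genes that passed, and this was not tested.

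Ratios within a library do not depend on the library total, and 7 ratios of genes whose products work together were compared. The ratio of Pln to Atp2a2 was 0.498, 0.495 and 0.484 in Trim28 replicates 1 to 3, against 0.866, 0.802 and 0.968 in Bgal replicates 1 to 3. Per annotated length there was thus less Pln transcript for each Atp2a2 transcript in all Trim28 libraries, by a log2 difference of -0.83. The ratio of Hrc to Atp2a2 was lower as well, at 0.00675 ± 0.000477 in the Trim28 libraries and 0.0113 ± 0.000585 in the Bgal libraries (SD, n = 3 each). The ratio of Slc8a1 to Atp2a2 had a log2 difference of -0.07, at 0.138 ± 0.00359 in the Trim28 libraries and 0.146 ± 0.00703 in the Bgal libraries. Without Bgal replicate 3 that log2 difference was -0.03 (exact permutation p = 0.3), and leaving out any 1 Trim28 library gave exact permutation p of 0.3 to 0.5.

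Around the release channel, Casq2 to Ryr2 was 4.31 ± 0.326 in the Trim28 libraries and 3.11 ± 0.131 in the Bgal libraries (SD, n = 3 each). Trdn to Ryr2 was 0.205 ± 0.0198 in the Trim28 libraries and 0.170 ± 0.0149 in the Bgal libraries. Across the junction, Jph2 to Cacna1c was 6.82 ± 0.597 in the Trim28 libraries and 5.14 ± 0.399 in the Bgal libraries. Ryr2 to Cacna1c was 4.01 ± 0.0839 in the Trim28 libraries and 5.45 ± 0.374 in the Bgal libraries. The groups did not overlap in any of the 7 ratios, and each gave an exact two-sided permutation p of 0.1, also with Benjamini-Hochberg adjustment over the 7, which is the smallest that 3 libraries against 3 allow and cannot pass 0.05. The separation was narrowest for Trdn to Ryr2, with a lowest Trim28 value of 0.1843 and a highest Bgal value of 0.1841, and for Slc8a1 to Atp2a2, with a highest Trim28 value of 0.1413 and a lowest Bgal value of 0.1414.

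**Figure D3:**
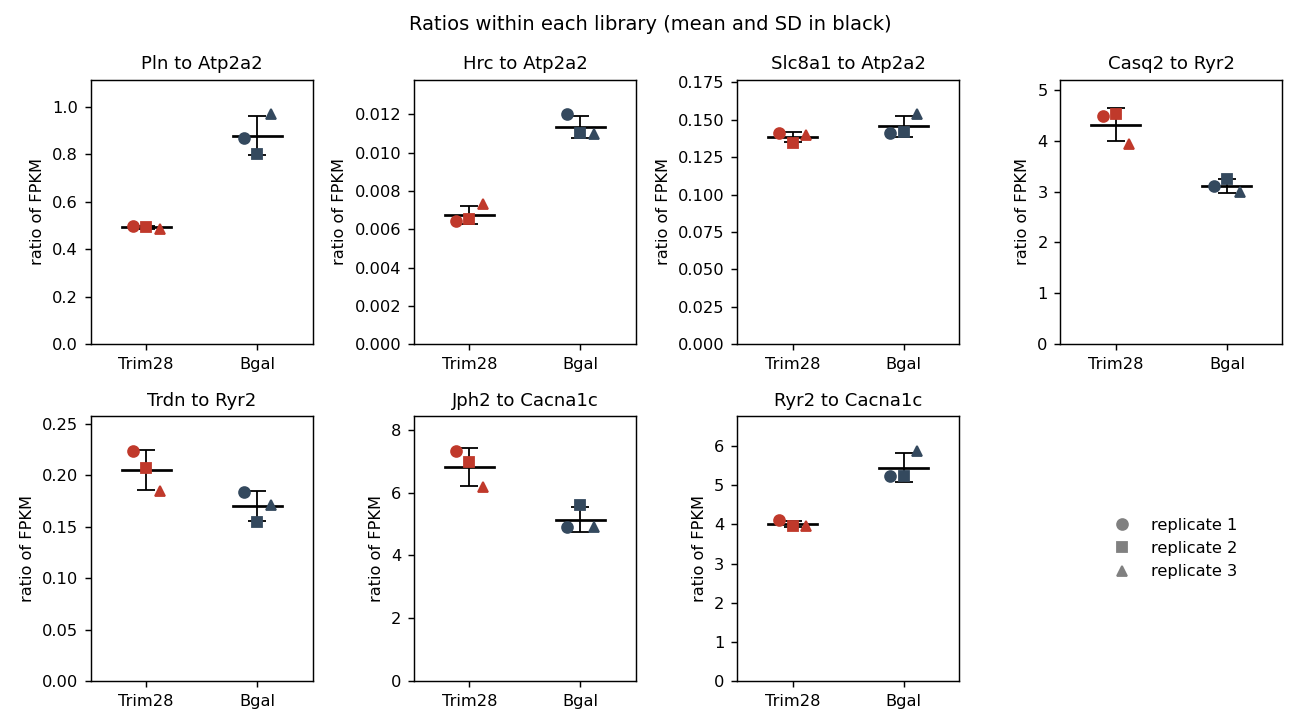
Ratios of FPKM between 2 calcium handling genes within each library (vertical axes, from 0), for the 3 Trim28 and the 3 Bgal libraries; symbols are replicates, and black bars are means with SD. Pln to Atp2a2 lies between 0.484 and 0.498 in the Trim28 libraries and between 0.802 and 0.968 in the Bgal libraries, while Slc8a1 to Atp2a2 nearly meets between the groups.

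Cultures of heart muscle cells can also hold other cells, and their markers moved in the same libraries. Of the fibroblast markers 9 of 10 rose and 0 fell, with a summed level of 798 to 866 FPKM in the Trim28 libraries and 449 to 468 FPKM in the Bgal libraries. Of the smooth muscle and mural markers 7 of 9 rose and 0 fell, with 1632 to 1729.8 FPKM in the Trim28 libraries and 769.6 to 1028 FPKM in the Bgal libraries. Kcnj8, 1 of those 7, reached the filter level of 0.5 FPKM in the Trim28 libraries alone, which favoured its call. With no filter 7 of the 9 rose as well. Most of the summed level was Acta2, named after its values were seen, at 1342 ± 52.1 FPKM in the Trim28 libraries and 692 ± 111 FPKM in the Bgal libraries. Of the defining markers, Myh11 stood at 7.59 ± 0.354 FPKM in the Trim28 libraries and 5.53 ± 0.290 FPKM in the Bgal libraries. Pdgfrb stood at 37.0 ± 0.634 FPKM in the Trim28 libraries and 18.5 ± 1.43 FPKM in the Bgal libraries. Of 8 leukocyte markers 6 passed the filter and rose, but Adgre1 and Ptprc among them reached 3 libraries at that level only through the Trim28 group, so the count of 6 is not read as support. With no filter 7 of the 8 rose. The leukocyte markers summed to 64.3 to 65.8 FPKM in the Trim28 libraries and 27.2 to 27.5 FPKM in the Bgal libraries. The endothelial markers summed to 9.41 to 9.99 FPKM in the Trim28 libraries and 10.5 to 11.1 FPKM in the Bgal libraries, and Cdh5, which defines that cell type, stood at 0.319 ± 0.128 FPKM in the Trim28 libraries and 0.488 ± 0.1004 FPKM in the Bgal libraries (SD, n = 3 each). Of the endothelial list 2 genes were tested, of which 1 rose and 1 fell. Ptprc, which defines leukocytes, stood at 1.05 ± 0.111 FPKM in the Trim28 libraries and 0.485 ± 0.0904 FPKM in the Bgal libraries, and Pdgfra, which defines fibroblasts, at 28.8 ± 1.69 FPKM in the Trim28 libraries and 10.4 ± 0.144 FPKM in the Bgal libraries. No marker of these lists was at 0 in every library, and Pecam1 was not analysed here. For the fibroblast, mural and leukocyte lists the count of genes that fell was 0 in limma also at an unadjusted p below 0.05 and in limma-voom. Smooth muscle cells are known to express some of the 9 genes as well, among them Atp2a2, Cacna1c, Pln and Slc8a1. The part of other cells in the values was not tested for any of the 9, nor for the genes of the partner lists described below. In bulk RNA, fewer cells of a type and less RNA per cell cannot be told apart.

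The markers of the labelled cell type were abundant but did not move together. Actc1, the most abundant and so the largest part of their sum, averaged 9018 ± 164 FPKM in the Trim28 libraries and 5714 ± 859 FPKM in the Bgal libraries. The largest fall was that of Myl2, to 362 ± 3.59 FPKM in the Trim28 libraries from 1008 ± 219 FPKM in the Bgal libraries. The largest rise was that of Myh7, to 752 ± 25.8 FPKM from 341 ± 56.3 FPKM. All 3 were named after their values were seen. The 11 cardiomyocyte markers in the table summed to 24222 to 24803 FPKM in the Trim28 libraries and 21245 to 24296 FPKM in the Bgal libraries. Among them 4 rose and 5 fell (4 and 3 with no filter), with Actn2 at 1019 ± 14.8 FPKM in the Trim28 libraries and 761 ± 20.2 FPKM in the Bgal libraries, and Tnnt2 at 3759 ± 52.1 FPKM in the Trim28 libraries and 4471 ± 138 FPKM in the Bgal libraries (SD, n = 3 each). Set against the geometric mean of these markers in each library, the log2 differences of the calcium handling genes were 0.80 for Jph2, 0.42 for Casq2, 0.39 for Cacna1c, 0.34 for Atp2a2, 0.27 for Slc8a1, -0.41 for Hrc and -0.49 for Pln. The groups did not overlap for these 7 or for Trdn (0.22), each with an exact permutation p of 0.1 (0.112 adjusted over the 9), and they overlapped for Ryr2 (-0.05, exact permutation p = 0.6). For Trdn this value was 0.10 without Bgal replicate 2 and 0.28 without Bgal replicate 1 or Bgal replicate 3, and leaving out any 1 Trim28 library gave an exact permutation p of 0.3. On this scale Pln and Hrc were lower and Jph2, Casq2, Cacna1c, Atp2a2 and Slc8a1 higher in the Trim28 libraries. The markers moved both ways, and their geometric mean differed little between the groups. Relative to its mean over the 6 libraries it was 0.982 to 1.00 in the Trim28 libraries and 0.941 to 1.04 in the Bgal libraries. The values on this scale thus largely repeat the plain ones and are no check on the share of heart muscle cells.

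Other genes of calcium handling were taken from 6 lists of 88 genes, of which 86 were in the table and 81 were tested. Of these 27 rose, 16 fell and 38 did not pass, with a median log2 change of 0.06. The counts of each list stand beside the 20.1% and 21.1% of all tested genes that rose and fell.

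Partners of the release channel had 7 genes that rose and 2 that fell among 17, with a median log2 change of 0.13. Itpr1, a store release channel opened by inositol trisphosphate, averaged 14.3 ± 0.0938 FPKM in the Trim28 libraries and 9.04 ± 0.315 FPKM in the Bgal libraries (SD, n = 3 each, limma adjusted p = 0.000248). Tecrl, a membrane protein whose loss in humans causes a calcium-related arrhythmia, averaged 41.9 ± 2.19 FPKM in the Trim28 libraries and 27.0 ± 4.88 FPKM in the Bgal libraries (limma adjusted p = 0.00464). The 2 that fell, Jph1 at 8.08 ± 0.364 FPKM in the Trim28 libraries and 9.39 ± 0.280 FPKM in the Bgal libraries and Calm2 at 91.6 ± 3.51 FPKM in the Trim28 libraries and 103 ± 4.12 FPKM in the Bgal libraries, were named after their values were seen. The count of 7 fell to 3 without Bgal replicate 1, to 4 without Trim28 replicate 2, and likewise to 4 without Bgal replicate 2 or Bgal replicate 3, and the count of 2 was 0 without Trim28 replicate 1, Bgal replicate 2 or Bgal replicate 3 and 1 without each other library.

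Partners of calcium uptake and storage had 0 genes that rose and 4 that fell among 8 tested, with a median log2 change of -0.22. The count of 0 in limma was also 0 at an unadjusted p below 0.05 and in limma-voom. Sln, which encodes sarcolipin, a further inhibitor of the pump, averaged 6.67 ± 0.886 FPKM in the Trim28 libraries and 12.8 ± 3.98 FPKM in the Bgal libraries (SD, n = 3 each, limma adjusted p = 0.0122). Hax1, whose product binds phospholamban, averaged 27.1 ± 0.900 FPKM in the Trim28 libraries and 43.0 ± 2.44 FPKM in the Bgal libraries (limma adjusted p = 0.000209). Ppp1r3a, a targeting subunit of protein phosphatase in striated muscle, averaged 7.21 ± 0.0467 FPKM in the Trim28 libraries and 11.5 ± 1.19 FPKM in the Bgal libraries (limma adjusted p = 0.00118). Calr, the calcium-binding chaperone calreticulin, was named after its values were seen and averaged 354 ± 21.4 FPKM in the Trim28 libraries and 419 ± 21.0 FPKM in the Bgal libraries (limma adjusted p = 0.0149). Both inhibitors of the pump that were tested, Pln and Sln, were thus lower in the Trim28 libraries while Atp2a2 was higher. Atp2a1 and Strit1 of this list were not analysed here.

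The list of calcium entry and extrusion at the surface membrane also holds channel inhibitors, a caveolin and sodium pump subunits. It had 12 genes that rose and 3 that fell among 19 tested, with a median log2 change of 0.42. The 12 include Cacna1s, the skeletal muscle counterpart of Cacna1c, which reached the filter level only in the Trim28 group, with 0.568, 0.796 and 0.502 FPKM there and 0.294, 0.192 and 0.189 FPKM in Bgal replicates 1 to 3. With no filter 11 of all 23 listed genes rose and 3 fell, and the median log2 change was 0.24. Rrad, a small GTPase that inhibits the L-type channel, averaged 188 ± 27.6 FPKM in the Trim28 libraries and 75.0 ± 4.29 FPKM in the Bgal libraries (SD, n = 3 each, limma adjusted p = 0.000162). Its relatives Gem and Rem1, named after their values were seen, also rose (limma adjusted p = 0.00096 and 0.00581), so all 3 listed members of this GTPase family were higher. Cav3, the muscle caveolin, averaged 186 ± 3.50 FPKM in the Trim28 libraries and 136 ± 7.22 FPKM in the Bgal libraries (limma adjusted p = 0.000499). Atp2b1, a calcium pump of the surface membrane, averaged 22.7 ± 0.577 FPKM in the Trim28 libraries and 16.4 ± 0.470 FPKM in the Bgal libraries (limma adjusted p = 0.000551). Among the 3 that fell were Cacna1h, a T-type channel pore, and Cacnb2, an accessory subunit of the L-type channel, both named after their values were seen. The other accessory subunits of the list, Cacnb1, Cacnb3, Cacna2d1 and Cacna2d2, all rose (limma adjusted p = 0.0402, 0.000599, 0.00804 and 0.0132). Cacnb2 was by far the most abundant of the Cacnb genes, at 55.3 FPKM in the Trim28 libraries and 61.7 FPKM in the Bgal libraries. Cacnb1 averaged 2.68 FPKM in the Trim28 libraries and 1.42 FPKM in the Bgal libraries, and Cacnb3 averaged 9.03 and 3.86 FPKM. The rises of Cacnb1 and Cacnb3 are thus not read as a rise of these subunits together.

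Among kinases, phosphatases and phosphodiesterases that act on these proteins, 3 of 19 rose, 3 fell and 13 did not pass, with a median log2 change of -0.07. Pde3a, a phosphodiesterase that breaks down cyclic AMP, averaged 50.5 ± 0.340 FPKM in the Trim28 libraries and 20.9 ± 0.790 FPKM in the Bgal libraries (SD, n = 3 each, limma adjusted p = 1.42e-05), 2.42-fold. Prkaca, a catalytic subunit of protein kinase A, which phosphorylates phospholamban, averaged 127 ± 3.09 FPKM in the Trim28 libraries and 180.3 ± 9.06 FPKM in the Bgal libraries (limma adjusted p = 0.000311). Prkacb, another catalytic subunit of that kinase, was named after its values were seen and did not pass (limma adjusted p = 0.924). It averaged 31.3 ± 1.87 FPKM in the Trim28 libraries and 31.1 ± 2.68 FPKM in the Bgal libraries. Hspb6, a small heat shock protein, averaged 163 ± 6.94 FPKM in the Trim28 libraries and 131 ± 3.53 FPKM in the Bgal libraries (limma adjusted p = 0.00169). Camk2d, the main cardiac calmodulin-dependent kinase, was named after its values were seen and averaged 36.4 ± 0.285 FPKM in the Trim28 libraries and 38.5 ± 1.52 FPKM in the Bgal libraries, a difference that did not pass (limma adjusted p = 0.223).

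Store-operated entry, the opening of surface channels when the store is empty, had 4 of 9 genes that rose and 0 that fell, with a median log2 change of 0.19. The count of 0 in limma was also 0 without adjustment at 0.05 and in limma-voom. Orai2, a pore subunit, averaged 2.79 ± 0.181 FPKM in the Trim28 libraries and 1.78 ± 0.143 FPKM in the Bgal libraries (SD, n = 3 each, limma adjusted p = 0.00809), and Trpc1 averaged 7.94 ± 0.260 FPKM in the Trim28 libraries and 5.74 ± 0.657 FPKM in the Bgal libraries (limma adjusted p = 0.00845). Saraf, a brake on this entry, averaged 69.3 ± 1.41 FPKM in the Trim28 libraries and 62.7 ± 1.80 FPKM in the Bgal libraries (limma adjusted p = 0.0289, lost in 7 alternatives). The count of 4 fell to 2 without Trim28 replicate 1, Trim28 replicate 2 or Bgal replicate 1.

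The list of mitochondrial calcium uptake, which also holds exchangers, had 1 gene that rose and 4 that fell among 9, with a median log2 change of -0.19. Letm1, an ion exchanger of the inner membrane, averaged 65.0 ± 0.703 FPKM in the Trim28 libraries and 78.3 ± 0.964 FPKM in the Bgal libraries (SD, n = 3 each, limma adjusted p = 0.00135). Micu3, a regulator of the uniporter, averaged 3.60 ± 0.497 FPKM in the Trim28 libraries and 5.45 ± 0.379 FPKM in the Bgal libraries (limma adjusted p = 0.00752). The 1 that rose was Slc8b1, the sodium-calcium exchanger of mitochondria, which is not a part of the uniporter. It averaged 7.63 ± 0.238 FPKM in the Trim28 libraries and 4.58 ± 0.686 FPKM in the Bgal libraries (limma adjusted p = 0.00244). Smdt1, a small subunit of the uniporter named after its values were seen, also fell. Reads of mitochondrially encoded genes made up 6.65% to 6.73% of the gene reads in the Trim28 libraries and 7.10% to 8.14% in the Bgal libraries.

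**Figure D4:**
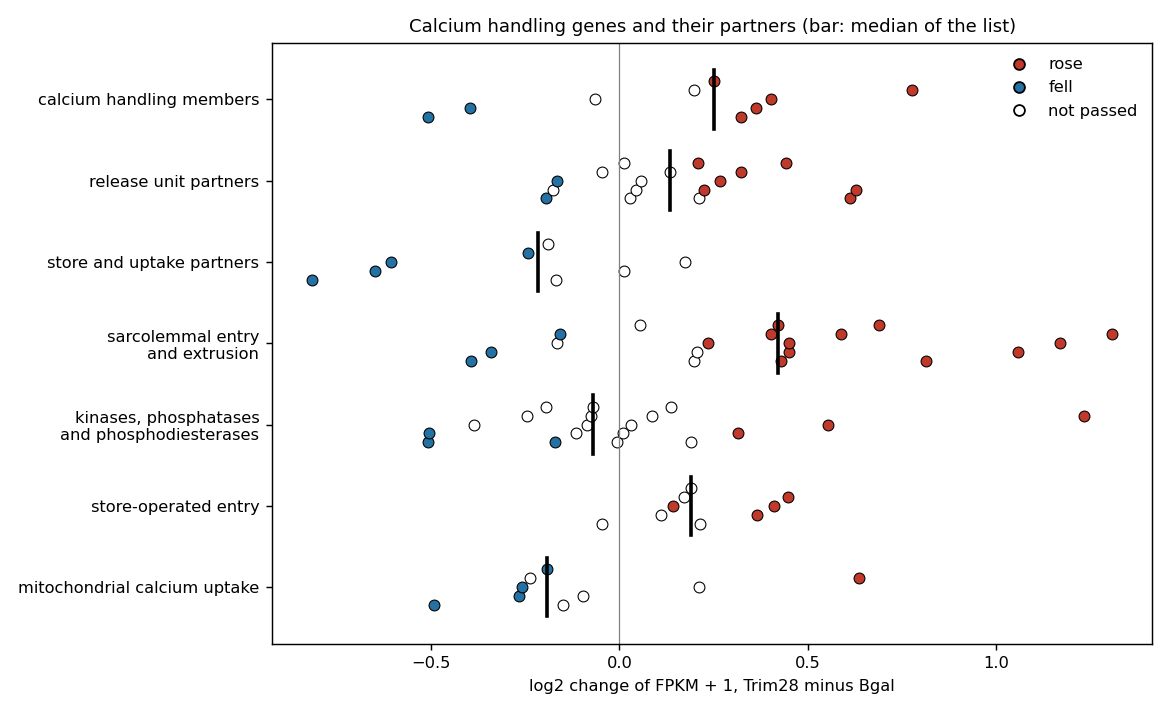
Log2 change of FPKM + 1, Trim28 minus Bgal (horizontal axis), of the 9 calcium handling genes and of the tested genes of 6 partner lists; each point is a gene, and the bar is the median of its list. The median lies at 0.42 in the surface membrane list and at -0.22 in the store and uptake list, in which no gene above 0 passed the threshold.

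By Pearson correlation of log2 values over the 6 libraries, which fall into 2 groups so that a shared group difference alone gives a high value, the tested genes most like Atp2a2 were Slc7a1 (r = 0.9997), Pld1 (r = 0.998) and Mme (r = 0.998). All 3 rose, Slc7a1 to 18.5 ± 0.307 FPKM in the Trim28 libraries, against 12.3 ± 0.892 FPKM in the Bgal libraries (SD, n = 3 each). Those most like Ryr2 were Polr2c (r = 0.982), Saysd1 (r = 0.976) and Asah1 (r = 0.975), none of which passed. Like Ryr2, these 3 were highest in replicate 3 of each group.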

How the data were processed

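Values in the deposited table are FPKM, per the file headers, with 1 column per library and 34510 genes. The authors' tools named in the submitters' processing notes are HISAT2 2.0.5 and DESeq2. No source used here names the counting tool, its strand setting, the build or the annotation. The table had 0 columns of other samples.

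The product of FPKM and gene length came in steps, and at least 99.9% of the values above 0 were within 0.01 of a whole number of steps, which gave the reads quoted. The 14808 genes that reached 0.5 FPKM in 3 or more libraries were compared as log2(FPKM + 1) in limma 3.58.1 (R 4.3.3), using the intensity trend and Benjamini-Hochberg adjustment over all of them. This scale understates changes of low genes. Folds are ratios of mean FPKM. No library was a copy of another in its group (chi-square over degrees of freedom 6.78 to 18.1), and each was counted as 1 replicate. The value of 6.78 was that of Trim28 replicates 1 and 2, the closest pair, and the other pairs lay between 12.4 and 18.1. This check finds copies only and does not show that the libraries are independent. Tests were two-sided, and the limma step was tested on simulated data. Promoters are from RefSeq, where all 9 genes matched by symbol.

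The 9 genes, the lists and the tests were chosen with earlier results of these data known. The text names the 9 genes, up to 3 genes of each partner list with the smallest p-values past the threshold, defining markers of each cell type, the check gene Trim28, and the 3 genes most correlated with Ryr2 and with Atp2a2. Some genes that this rule took are not reported by name. Alternatives covered pseudocount, filter, scaling, variance trend, limma-voom on recovered reads, a replicate block and each library left out.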

Additional observations from a re-analysis of the deposited data

How the results depend on the processing

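Over 15 alternative fits, Jph2, Casq2, Atp2a2, Cacna1c, Pln and Hrc kept their direction and their call. Pln ranged from -0.58 to -0.41, Jph2 from 0.73 to 0.84 and Atp2a2 from 0.30 to 0.35 on the log2 scale. Leaving out each library in turn, Slc8a1 ranged from 0.21 to 0.32 (limma adjusted p = 0.00258 to 0.0557), Trdn from 0.11 to 0.28 and Ryr2 from -0.12 to 0.0077, and Ryr2 relative to cardiomyocyte markers from -0.12 to 0.00235, the sign changing without Bgal replicate 3. Among partners of the release channel the genes that rose ranged from 3 to 5 and those that fell from 0 to 1 without each library. Those that fell numbered 1 with no filter, without the variance trend, with the replicate block or with median-of-ratios scaling, and 0 with cardiomyocyte marker scaling. Kinases and phosphodiesterases that fell numbered 5 in limma-voom and with protein coding nuclear genes only. Store-operated entry genes that rose ranged from 2 to 3 without each library. The cause of these differences was not tested. Median-of-ratios scaling and the restriction to protein coding genes were chosen after seeing the data. Over all genes, counts stayed within 1.5 times, at 2329 to 3107 higher and 2454 to 3433 lower. Deviations from the group means correlated weakly between same-numbered libraries (-0.0164, 0.135 and 0.00915), and between differently numbered ones (-0.0899 to 0.0839). The value of 0.135, for replicate 2, was the largest of all. The numbers were not taken as pairs. With the replicate block, 2744 genes rose and 2922 fell, and the calls of the 9 genes did not change. Count models (edgeR, DESeq2) and TMM scaling were not run, since the deposited values are FPKM. For Ryr2 these libraries bound a change only as closely as its confidence interval.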
